A study of Saccharomyces cerevisiae with 4 samples.

Results

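Genes of protein glycosylation and of glycosylphosphatidylinositol (GPI) anchor synthesis were examined in budding yeast exposed to cadmium. Members were the probes with exactly 1 platform symbol whose symbol belongs to a named set of gene families (ALG, PMT, OST, GPI, MNN, MNT, KTR and the like) or to a short list that adds MCD4, PSA1, SEC53, SEC59 and LAS21. The rule found 50 genes on 55 probes. ROT2, the catalytic subunit of glucosidase II, had no value on any array, which left 49 genes on 54 probes, out of 3099 named genes and 5946 features in all. One of the 49, GPT2, is a glycerol-phosphate acyltransferase of lipid synthesis that the symbol pattern takes in, and it belongs to none of the steps below. PMT2, WBP1, DPM1, MNN9 and KRE2 were among the pathway genes with no measured value under their own symbol and were not analysed here.

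The study set W303-1A cells with the P-type ATPase CadA, a metal pump from the bacterium Listeria monocytogenes, against W303-1A cells with the mutant D398A of that pump. Both were grown at 30 °C in minimal medium with all amino acids and adenine to an OD600 of 0.4 and then kept in 1 µM cadmium for 1 h, so no group without cadmium or without a bacterial protein was compared. Each of 4 two-colour arrays, printed with yeast open reading frames, received RNA of the CadA cells in one dye and of the D398A cells in the other. The CadA dye was Cy5 on arrays 1 and 3, whereas arrays 2 and 4 had it in Cy3. Separate cultures are not named in the labels, so the spread behind a p-value may be technical, and precision is limited by the small number of arrays. The bacterial gene has no probe among the named yeast genes, so the strain labels could not be checked on it.

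In the endoplasmic reticulum (ER), a sugar chain is built on the lipid dolichol and then moved as a whole to asparagine residues of new proteins, which is N-glycosylation. Other proteins receive mannose on serine or threonine (O-mannosylation), or a GPI anchor that ties them to the membrane and, in yeast, leads many of them to the cell wall. The Golgi then lengthens the N-linked and O-linked chains with mannose taken from GDP-mannose. These routes supply the mannoproteins of the yeast wall and share dolichol-bound sugars with one another.

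All values are log ratios between the strains on 1 array, taken as log2, since the sources used here do not state the base. Which dye stands on top of the deposited ratio is not stated, so neither side can be given the name of a strain. In the leading reading, called turned signs, the sign was kept on arrays with CadA in Cy3 and turned on arrays with CadA in Cy5, so that all arrays run the same way if the table had not been turned already. KAR2, the main Hsp70 chaperone of the ER, was positive on all arrays in this reading, with 0.28, 0.80, 0.85 and 2.23 on arrays 1 to 4. Its mean was 1.04 ± 0.84 (SD, n = 4), and like all other features it did not pass an adjusted p of 0.05 with limma. A positive value in turned signs therefore means the side of KAR2. The other reading keeps the signs as deposited and is given further on. KAR2 read -0.28, 0.80, -0.85 and 2.23 there, so it marks no side in that reading.

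The arrays differed in spread and in slide position effects. The SD over all probes was 0.87 and 0.95 on arrays 1 and 2 and 0.46 and 0.47 on arrays 3 and 4. Across all probes, the pairs of arrays with opposite dyes correlated between 0.009 and 0.35 in deposited signs, all above 0, and so between -0.35 and -0.009 in turned signs, all below 0, with arrays 1 and 2 at the extreme. The pairs with the same dyes, which read alike in both, correlated at 0.18 for arrays 1 and 3 and -0.02 for arrays 2 and 4. The arrays thus resembled each other more in deposited than in turned signs, and the direction is not settled. The first number of a probe's identifier, which runs over 48 values, was taken as its print block, and 10.8% to 38.5% of an array's variance lay between blocks. On array 2, blocks 41 to 48 had block medians between 0.41 and 1.83, whereas the other blocks had medians between -0.76 and 0.91. Of the 49 genes, 13 have a probe in those 8 blocks.

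Taken as a group, the glycosylation and GPI anchor genes lay slightly to the positive side. In turned signs 32 of 49 had a mean above 0, against 47.4% of all features, and the median of the gene means was 0.11, against -0.01 over all features. Gene means ran from -0.44 for MNN10 to 2.24 for MCD4, and the median SD of a gene over the arrays was 0.63. No gene of the group passed an adjusted p of 0.05 in limma's test over all features (0.0% of features did). An unadjusted p below 0.05 was reached by 6 members, MCD4, SEC59, ALG12, ALG3, PSA1 and KTR1, and by 1.88% of all features. All 6 had a positive mean.

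The arrays did not contribute alike to this tilt. On array 4, 41 of 49 genes were positive and the median was 0.38, where 51.9% of all features were positive. On arrays 1, 2 and 3 the numbers positive were 23, 27 and 26 and the medians -0.19, 0.09 and 0.04. The share of all features that was positive on those arrays was 51.7%, 45.8% and 49.1%. The medians of the group over the 4 arrays averaged 0.08 ± 0.23 (SD, n = 4), a mean smaller than its own spread. Without array 4, 26 of 49 gene means were above 0 (47.3% of all features) and the median was 0.01. On arrays 3 and 4 alone 36 were above 0 (48.6% of all features, median 0.21), and on arrays 1 and 2 alone 22 were (46.9%, median -0.04).

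**Figure D1:**
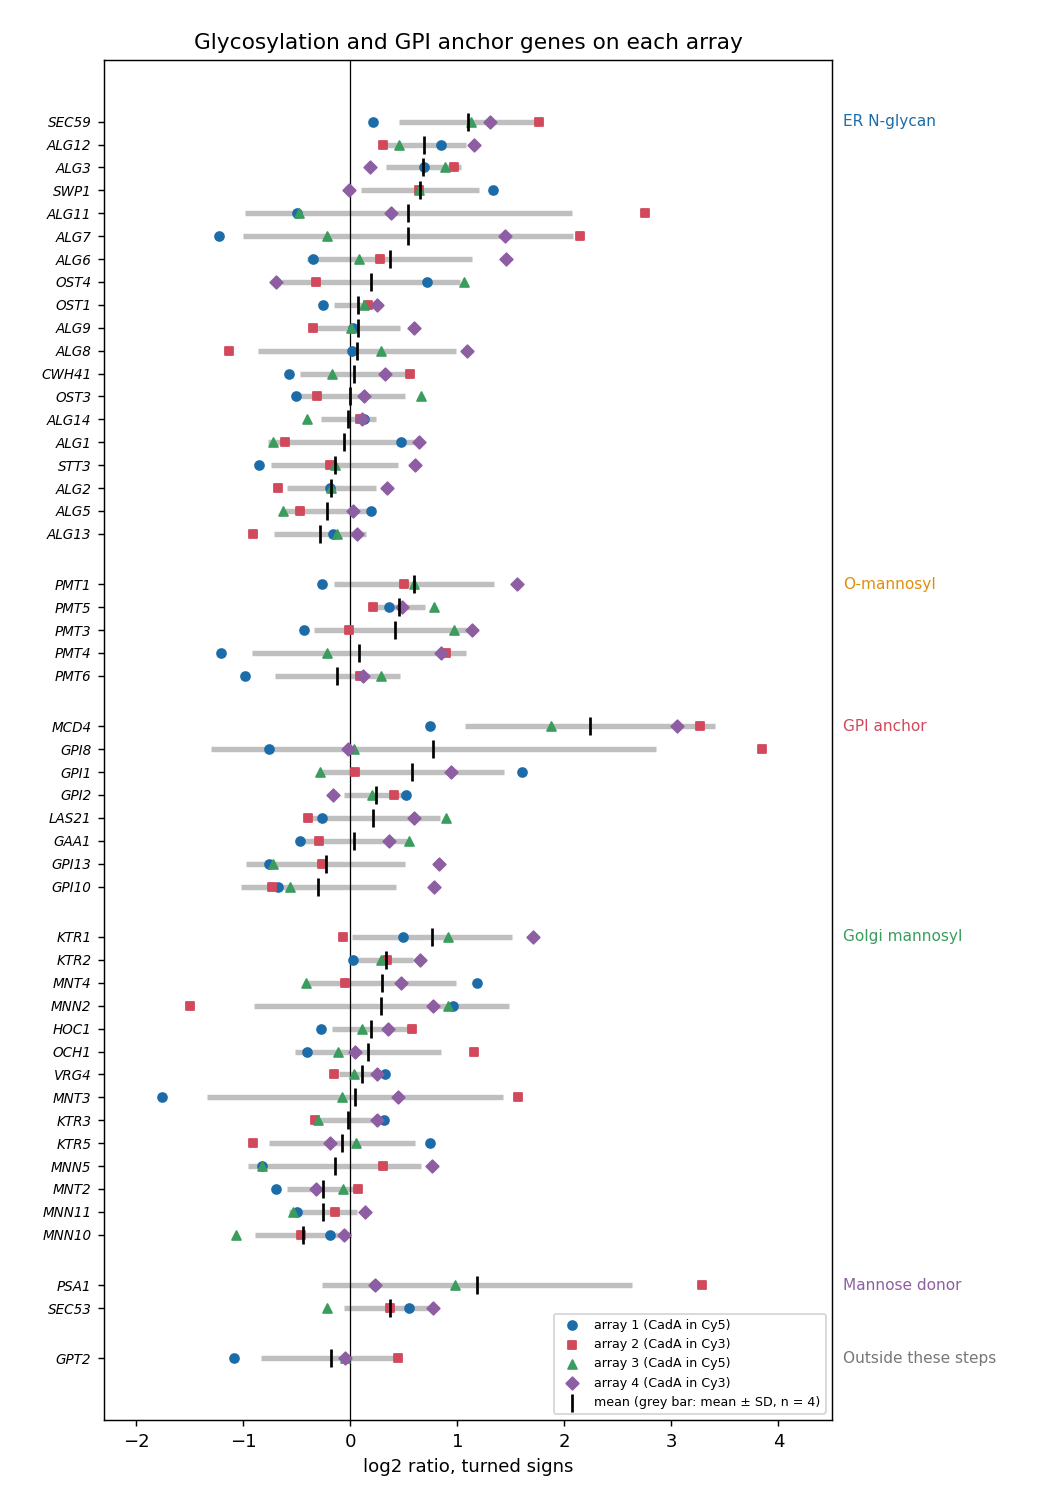
Log2 ratio in turned signs (horizontal axis) of each of the 49 measured genes (rows, grouped by step and ordered by mean), with 1 symbol per array, a black tick for the mean and a grey bar for the mean ± SD over 4 arrays. MCD4 is the gene with the highest mean (2.24), 41 of the 49 purple diamonds of array 4 lie right of 0, and the red squares of array 2 hold the farthest values for GPI8, PSA1 and ALG11.

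Some genes read the same way on every array. In turned signs MCD4, SEC59, ALG12, ALG3, PMT5, KTR2 and PSA1 were positive on all 4 arrays, 7 of 49, against 3.4% of all features. For ALG3 and PMT5 this holds for the average of 2 probes, and single probes of both were negative on some arrays. MNN10 was negative on all 4, 1 of 49, against 3.58%. These genes are spread over the steps, with 3 in N-glycan assembly, 1 in O-mannosylation, 1 in GPI anchor assembly, 1 of the Golgi on each side and 1 in mannose supply.

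Among genes for the dolichol-linked oligosaccharide, the means of 8 of 13 were above 0 and the median was 0.07. SEC59 encodes dolichol kinase, which makes the lipid carrier. It read 0.21, 1.76, 1.13 and 1.31 on arrays 1 to 4 and averaged 1.10 ± 0.65 (SD, n = 4; limma adjusted p = 1.00). Only array 1 lay near 0, and its mean without array 2 was 0.88. After each print block was centred on its median the mean of SEC59 was 0.82 and its sign was positive on all arrays.

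ALG7 and ALG11 act early, on the outer face of the ER membrane. ALG7, which adds the first sugar to dolichol and is the target of tunicamycin, read -1.23, 2.15, -0.22 and 1.45 and averaged 0.54 ± 1.54. ALG11, a mannosyltransferase, read -0.49, 2.75, -0.47 and 0.38 and averaged 0.54 ± 1.53. Both genes were positive on arrays 2 and 4 and negative on arrays 1 and 3, so their sign followed the dye orientation in this reading. ALG11 sits in block 48, where the median of all probes on array 2 was 1.83, and after block centring its mean was 0.06. Without array 2 the means were 0.0009 for ALG7 and -0.20 for ALG11.

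ALG3 and ALG12 add mannoses inside the ER, at the start and near the end of that stage. ALG12 read 0.85, 0.31, 0.46 and 1.16, all positive, with a mean of 0.69 ± 0.38 (limma adjusted p = 1.00), and 0.66 after block centring. ALG3 averaged 0.68 ± 0.35 over its 2 probes, with 0.69, 0.97, 0.88 and 0.19 on arrays 1 to 4. Its probes differed: the one in block 46 read 0.30, -0.10, 1.08 and -0.02 (mean 0.31), and the one in block 48 read 1.08, 2.04, 0.68 and 0.40 (mean 1.05). Block centring brought the mean of ALG3 to 0.30, with 3 arrays positive.

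ALG6 and ALG8, the glucosyltransferases that add the first glucoses, averaged 0.37 ± 0.77 and 0.06 ± 0.92, and both read above 1 on array 4 (1.46 and 1.09). Without array 4 their means were 0.004 and -0.28. ALG5, which makes the dolichol-bound glucose they use, averaged -0.22 ± 0.39. ALG9, ALG1 and ALG2, which add mannose, averaged 0.07 ± 0.39, -0.06 ± 0.71 and -0.18 ± 0.41. ALG13 and ALG14 form the enzyme that adds the second sugar. ALG13 had the lowest mean of the N-glycan genes, -0.28 ± 0.43, with -0.16, -0.91, -0.13 and 0.06 on arrays 1 to 4, and ALG14 averaged -0.02 ± 0.26.

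Of the oligosaccharyltransferase, the complex that moves the finished chain to the protein, 5 subunits were measured and their median was 0.07. SWP1 read 1.33, 0.64, 0.65 and -0.02 and averaged 0.65 ± 0.55. It lies in block 47, whose median on array 2 was 1.53, and its mean after block centring was 0.17. OST4, a very small subunit, read 0.72, -0.32, 1.06 and -0.69 and averaged 0.19 ± 0.83, so its sign followed the dye orientation, opposite to ALG7. The catalytic subunit STT3 averaged -0.15 ± 0.59, OST1 0.07 ± 0.22 and OST3 -0.01 ± 0.52. CWH41, glucosidase I, which removes the outermost glucose after transfer, read -0.58, 0.55, -0.17 and 0.32 and averaged 0.03 ± 0.51. Over all 19 ER N-glycan genes 12 means were above 0.

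The 5 measured O-mannosyltransferase genes had a median of 0.42, and 4 of their means were above 0. PMT5 was the steadiest, with 0.36, 0.21, 0.78 and 0.49 on arrays 1 to 4 and a mean of 0.46 ± 0.24 (limma adjusted p = 1.00). PMT1 read -0.26, 0.51, 0.59 and 1.56 and averaged 0.60 ± 0.75. Each of these genes has 2 probes, in blocks 34 and 36, and their single readings were less steady than the averages. The PMT5 probes read -0.41, 1.17, 0.52 and 0.44 and 1.13, -0.75, 1.03 and 0.54, opposite in sign to each other on arrays 1 and 2, with means of 0.43 and 0.49. The PMT1 probes read 0.32, -0.28, 0.99 and 1.10 and -0.85, 1.29, 0.20 and 2.02, also opposite on arrays 1 and 2, with means of 0.53 and 0.67. The probes of both genes were positive on arrays 3 and 4.

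PMT3, a relative of PMT2, averaged 0.42 ± 0.76 and read above 0.9 on arrays 3 and 4 (0.97 and 1.14) and at or below 0 on the others (-0.43 and -0.01). PMT4, which works on membrane proteins, read -1.21, 0.89, -0.21 and 0.85 and averaged 0.08 ± 1.00. PMT6 had the lowest mean of the step, -0.12 ± 0.58, with -0.99 on array 1 and 0.09, 0.29 and 0.12 on arrays 2 to 4. The medians of the O-mannosyl step were -0.43, 0.21, 0.59 and 0.85 on arrays 1 to 4, so array 1 was the only one on the other side. On arrays 1 and 2 alone the median of the gene means was -0.16.

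GPI anchor genes included the gene with the highest mean of all features. MCD4, read by 1 probe in block 42, encodes the enzyme that attaches ethanolamine phosphate to the first mannose of the anchor. It read 0.75, 3.27, 1.88 and 3.05 on arrays 1 to 4, a mean of 2.24 ± 1.17 (SD, n = 4), or 4.72-fold if the base is 2, and ranked 1 of 5946 features. All arrays were positive, and the lowest reading, 0.75 on array 1, was below that array's SD of 0.87 over all probes. With limma over all features its adjusted p was 0.82, and over the fits named next it ran from 8e-08 to 1.0. The adjusted p was 0.022 without array 1 (mean 2.73), 0.49, 1.0 and 1.0 without arrays 2, 3 and 4, and 0.82 with print blocks centred (mean 1.97). With print blocks centred and array 1 left out, the limma adjusted p was 0.13 (mean 2.47). It was 0.21 with arrays scaled to 1 SD, 0.42 with a dye coefficient and 0.027 with array weights. Averaging array 1 with 2 and 3 with 4 first gave 0.017, and averaging 1 with 4 and 2 with 3 gave 0.00015. Arrays 3 and 4 alone gave 8e-08, and arrays 1 and 2 alone 1.0. The fits with an adjusted p below 0.05 after averaging, or on arrays 3 and 4, use 2 values per gene and lean on the spread of all features.

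No other gene of the anchor stood on 1 side throughout. GPI8, the catalytic subunit of the transamidase that joins the anchor to the protein, read -0.76, 3.85, 0.04 and -0.02. Its mean of 0.78 ± 2.08 rested on array 2 and was -0.25 without it. GAA1, a second subunit of the transamidase, averaged 0.04 ± 0.49. GPI1 and GPI2 belong to the complex that starts the anchor. GPI1 read 1.61, 0.04, -0.29 and 0.94 and averaged 0.57 ± 0.86, and GPI2 averaged 0.24 ± 0.30 with 3 arrays positive. The other ethanolamine phosphate transferase genes, LAS21 and GPI13, averaged 0.21 ± 0.63 and -0.23 ± 0.74. GPI10, which adds the third mannose, had the lowest mean, -0.30 ± 0.73, with -0.67, -0.74, -0.57 and 0.79 on arrays 1 to 4. Of the 8 anchor genes 6 had a mean above 0, and the median was 0.23.

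Of the 14 Golgi mannosyl genes 8 had a mean above 0, and the median was 0.08. KTR1 and KTR2 encode mannosyltransferases of the KRE2 family, which lengthen O-linked and N-linked chains. KTR1 read 0.49, -0.06, 0.91 and 1.71 and averaged 0.76 ± 0.75. KTR2 read 0.03, 0.34, 0.29 and 0.65, all positive, and averaged 0.33 ± 0.26. The limma adjusted p was 1.00 for both. After block centring KTR1 was positive on all 4 arrays, with a mean of 0.92, and KTR2 on 3, with a mean of 0.34.

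The relatives KTR3 and KTR5 averaged -0.02 ± 0.35 and -0.08 ± 0.68. KTR5 read 0.75, -0.91, 0.05 and -0.19, and its 2 probes had the same sign as each other on arrays 1, 2 and 4. The 2 probes of KTR3 were opposite in sign on arrays 1 and 2, with 1.35, -1.34, 0.0003 and 0.23 for one and -0.73, 0.67, -0.60 and 0.27 for the other. Cross-hybridisation between such relatives was not tested, since the sources used here do not give the probe sequences.

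Genes of the outer N-linked chain had means between -0.44 and 0.29. MNN10, a subunit of the second polymerase complex of the Golgi, read -0.19, -0.46, -1.06 and -0.05 and averaged -0.44 ± 0.45 (limma adjusted p = 1.00). It was the lowest gene of the group and negative on every array, though array 4 lay close to 0. Its partners MNN11 and HOC1 averaged -0.26 ± 0.32 and 0.19 ± 0.37. OCH1, which starts the outer chain, read -0.41, 1.15, -0.12 and 0.05 and averaged 0.17 ± 0.68. MNN2 and MNN5, which add branches to the outer chain, averaged 0.29 ± 1.19 and -0.15 ± 0.81. MNN5 read -0.82, 0.31, -0.83 and 0.76, so its sign followed the dye orientation. MNT2 and MNT3, which cap O-linked chains, averaged -0.25 ± 0.34 and 0.05 ± 1.39, and MNT3 read -1.76, 1.57, -0.08 and 0.45. MNT4 averaged 0.30 ± 0.69, and 0.0026 without array 1. VRG4, the carrier that brings GDP-mannose into the Golgi, averaged 0.11 ± 0.22.

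Mannose supply was represented by 2 genes. PSA1 encodes the enzyme that makes GDP-mannose, the donor that all of these routes depend on. It read 0.23, 3.29, 0.98 and 0.23 and averaged 1.18 ± 1.45 (limma adjusted p = 1.00), positive on all arrays. The reading on array 2 stood far above the others, and the mean without it was 0.48. PSA1 lies in block 47, with a block median of 1.53 on array 2, and after block centring its mean was 0.70 with 3 arrays positive. SEC53, the phosphomannomutase one step earlier, read 0.55, 0.37, -0.22 and 0.78 and averaged 0.37 ± 0.42.

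**Figure D2:**
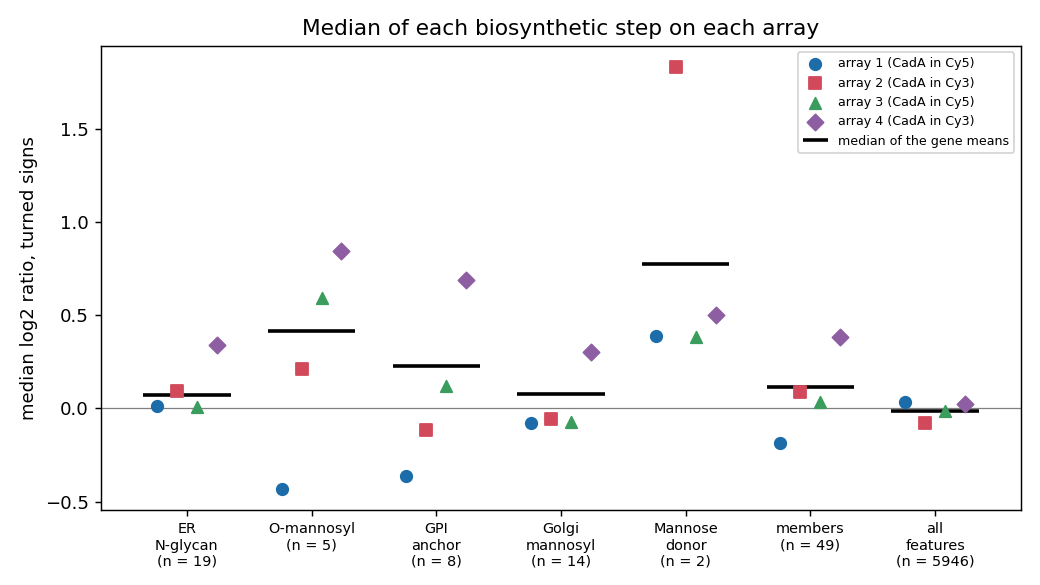
Median log2 ratio in turned signs (vertical axis) of the genes of each step, of all 49 members and of all 5946 features, with 1 symbol per array and a black line for the median of the gene means. Array 4 gives the highest median in the ER N-glycan, O-mannosyl, GPI anchor and Golgi steps (0.34, 0.85, 0.69 and 0.30), array 1 the lowest in those 4 steps except ER N-glycan, and array 2 stands apart in the mannose donor step (1.83).

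The steps could not be ordered by their medians. The median of the gene means was 0.07 for ER N-glycan, 0.42 for O-mannosyl, 0.23 for GPI anchor and 0.08 for Golgi mannosyl genes. The SD of the array medians was 0.16, 0.56, 0.45 and 0.19 for these steps (n = 4 arrays). All steps were read on the same arrays. Within an array, the O-mannosyl median was the highest of these 4 steps on arrays 2, 3 and 4 (0.21, 0.59 and 0.85). It was the lowest of them on array 1 (-0.43), so no order held on all arrays. After block centring the medians were 0.10, 0.46, 0.18 and -0.08. No test of the difference between steps was run, since genes are not replicates of a condition.

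Values differed with position on the slide. The 13 genes with a probe in blocks 41 to 48 were MCD4, PSA1, SEC59, GPI8, GPI2, ALG3, ALG7, ALG11, SWP1, OCH1, VRG4, MNT3 and PMT4. All 13 had a mean above 0 in turned signs, with a median of 0.54. A mean above 0.5 was found for 12 of 49 genes (6.63% of all features), and 8 of the 12 were among the 13. Over all features 394 had such a mean, and 223 of those had a probe in blocks 41 to 48. A mean below -0.5 was found for 0 of 49 genes (2.1% of all features). Of 989 features in those blocks 776 had a mean above 0, and their median was 0.25. On array 2 the median was 1.57 for the 13 genes and 1.05 for all features in those blocks. The other 36 genes had a median of 0.04, with 19 means above 0. Of the 4957 other features 2041 had a mean above 0, and their median was -0.05. This split was chosen after the values of array 2 were seen, and the part of slide position in the single values was not tested beyond block centring.

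**Figure D3:**
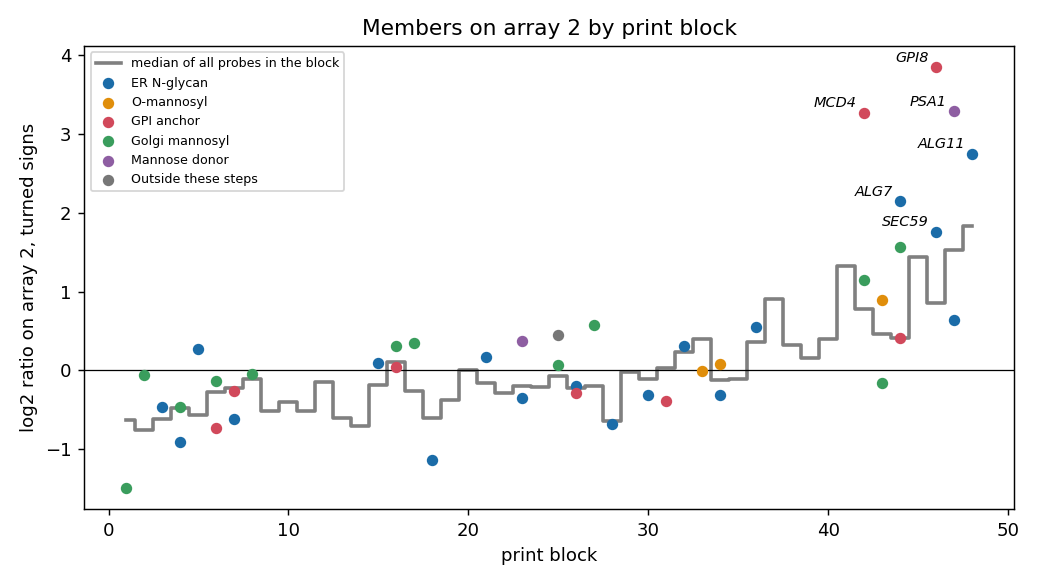
Log2 ratio on array 2 in turned signs (vertical axis) of the genes with 1 probe against the print block of that probe (horizontal axis), coloured by step, with the median of all probes in each block as a grey line. The block medians climb to between 0.41 and 1.83 in blocks 41 to 48, and the 6 named genes with the highest readings, GPI8, PSA1, MCD4, ALG11, ALG7 and SEC59, all lie in that range of blocks.

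Centring each block on its median left the count of positive means little changed and shrank several genes. Means above 0 were found for 30 of 49 genes (48.5% of all features) and the median was 0.10. Means above 0.5 were found for 7 genes after centring (4.99% of all features), against 12 before. MCD4, SEC59, ALG12, PMT5 and KTR1 were positive on all 4 arrays after centring, 5 of 49, against 4.59% of all features, and 0 were negative on all 4, against 3.83%. MCD4 read 0.47, 2.49, 1.55 and 3.37 after centring.

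**Figure D4:**
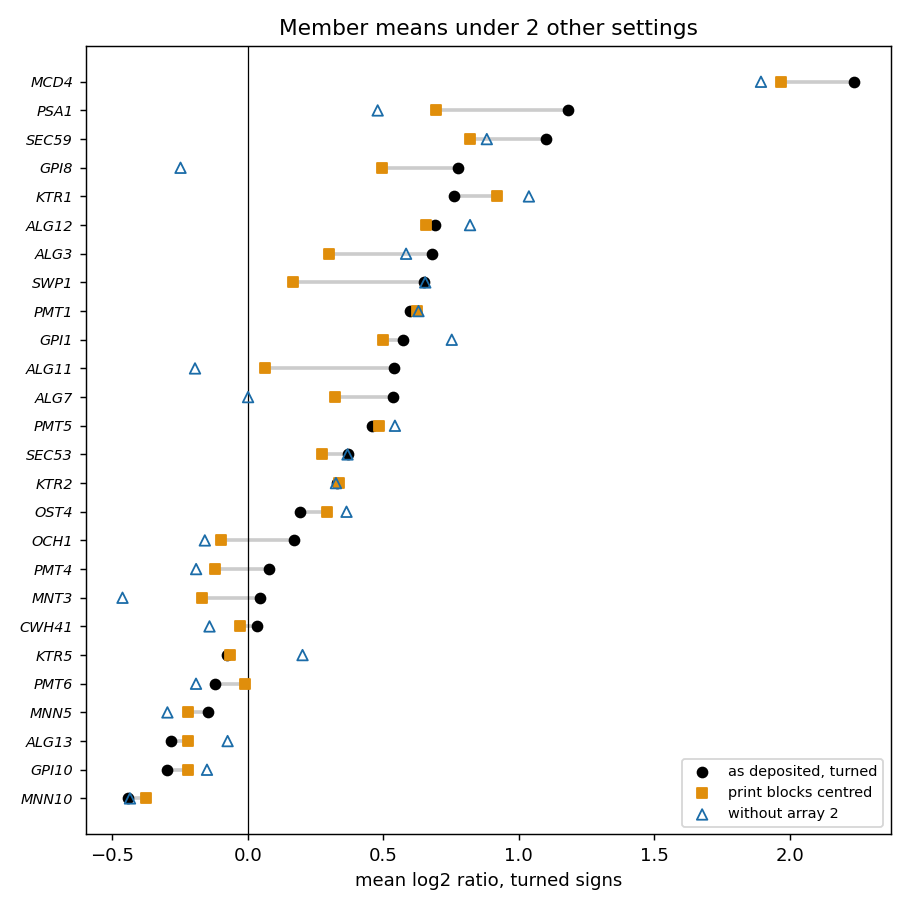
Mean log2 ratio in turned signs (horizontal axis) of the 26 genes whose values are given on every array, as deposited and turned (black points), with print blocks centred (orange squares) and without array 2 (open triangles). MCD4 stays highest at 2.24, 1.97 and 1.89, whereas GPI8, at 0.78 over all arrays, is at -0.25 without array 2, and ALG11, at 0.54, is at 0.06 with blocks centred.

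In the signs as deposited, other genes came to the front. If the authors had already turned the table, this reading holds the strain difference and the turned signs hold dye effects, and the reverse otherwise. In this reading 32 of 49 genes had a mean above 0 (46.5% of all features) and the median was 0.14, against -0.03 over all features. No gene passed an adjusted p of 0.05 (0.0% of features). The smallest limma adjusted p in the group was 0.42, shared by ALG7 and the other genes named next. The smallest over all features was 0.42 too. An unadjusted p below 0.05 was reached by 6 of 49 genes, ALG7, ALG11, OST4, PMT4, MNN5 and MNT3, and by 11.7% of all features in limma's test. The share of the group is thus near that of all features.

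Positive on all 4 arrays as deposited were ALG7, ALG11, CWH41, PMT4, OCH1, MNN5 and MNT3, 7 of 49, against 12.4% of all features, so the share of the group is near the background. ALG7 averaged 1.26 ± 0.80, with 1.23, 2.15, 0.22 and 1.45 on arrays 1 to 4. ALG11 averaged 1.03 ± 1.15, MNT3 0.96 ± 0.83, PMT4 0.79 ± 0.42, MNN5 0.68 ± 0.25, OCH1 0.43 ± 0.50 and CWH41 0.41 ± 0.20. Of these 7 genes 5 lie in blocks 41 to 48: ALG7, ALG11, PMT4, OCH1 and MNT3. Of all 49 genes 13 have a probe there. Over all features 740 were positive on all 4 arrays as deposited, and 99 of those had a probe in these blocks. With print blocks centred the mean of ALG11 was 0.55. The means of ALG7, MNT3, PMT4, MNN5, OCH1 and CWH41 were then 1.33, 1.03, 0.80, 0.55, 0.47 and 0.28. After centring 10 of 49 genes were positive on all 4 arrays in this reading, against 966 of 5946 features. OST4 at -0.70 ± 0.31 and KTR5 at -0.47 ± 0.42 were negative on all 4, 2 of 49, against 12.3%. Means above 0.5 were found for 9 of 49 (11.2% of all features) and means below -0.5 for 2 (12.0%). MCD4 averaged 0.92 ± 2.63 here with 2 arrays on each side, PSA1 0.58 ± 1.88, SEC59 0.43 ± 1.34 and ALG12 0.04 ± 0.89.

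**Figure D5:**
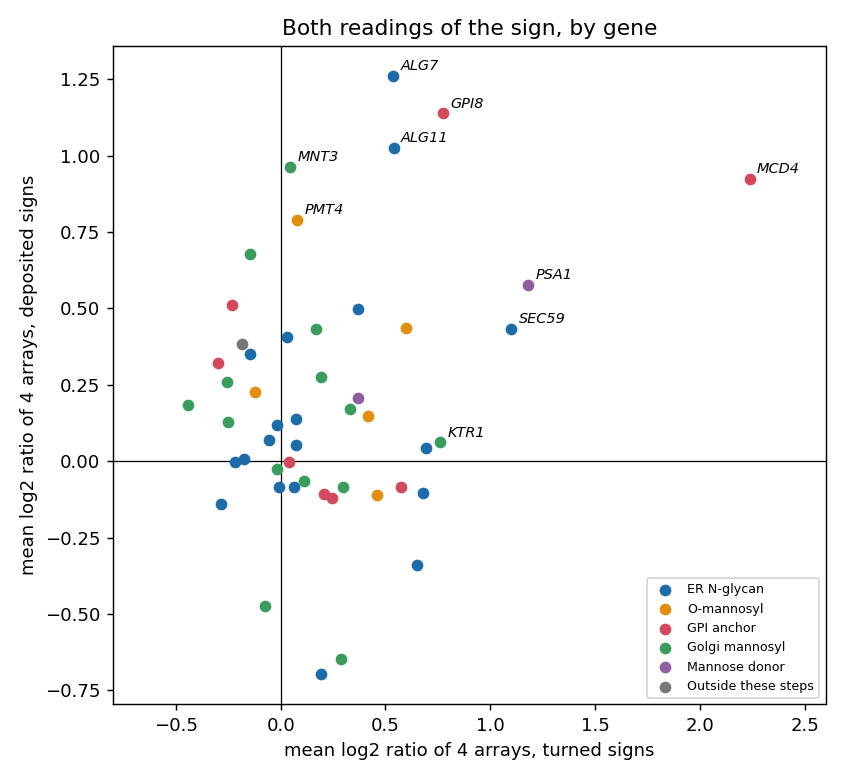
Mean log2 ratio of each of the 49 genes in turned signs (horizontal axis) and in deposited signs (vertical axis), coloured by step. MCD4 lies farthest right at 2.24 and has a deposited mean of 0.92, while ALG7, GPI8 and ALG11 lie highest, with deposited means of 1.26, 1.14 and 1.03.

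Genes of the same routes whose symbols the rule does not match were read beside the group. Of 28 such genes listed, 17 were measured, and 12 had a mean above 0 in turned signs (47.4% of all features) with a median of 0.17. None passed an adjusted p of 0.05. NUS1, a subunit of the enzyme that makes the dolichol chain, read 0.30, 1.72, 0.18 and 0.51 and averaged 0.68 ± 0.71, or 0.33 without array 2. GFA1, which opens the route to UDP-N-acetylglucosamine, read 0.38, 0.66, 0.39 and 1.25 and averaged 0.67 ± 0.41. Both were positive on all 4 arrays, 2 of 17, against 3.4% of all features. RER2, another dolichol synthase gene, averaged 0.38 ± 0.59 with 2 arrays positive, and DIE2, which adds the last glucose to the dolichol-linked chain, 0.37 ± 0.83 with 3. Without array 1 the means were 0.11 for RER2 and 0.0088 for DIE2. GDA1, which clears GDP in the Golgi after mannose transfer, had the lowest mean, -0.41 ± 0.66, which was -0.24 without array 1, -0.24 without array 3 and -0.70 without array 4.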

How the data were processed

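The authors deposited 1 table of normalized log ratios, taken as log2, for 6216 probes and 4 arrays, made with limma 3.2.1 per the submitters' processing notes. For the log base, the numerator, the background correction, the normalization and the spot filters nothing is stated in the labels. Every column was used. A value was present for 6162 probes on every array and for 54 on none. Probes were named from the platform annotation (3344 with 1 symbol, 387 with several, 2485 with none here), and those of a symbol were averaged, giving 5946 features. Member symbols matched the R64 table. In turned and in deposited signs, limma 3.58.1 under R 4.3.3 (lmFit, then eBayes) gave a two-sided test of every feature mean against 0. P-values were adjusted by Benjamini-Hochberg over all features. The fit was tested on simulated data with independent noise. That noise lacked the unequal spread of the arrays and the block effects found here. Members, lists and tests were chosen with earlier results of these data known. Values on every array are given for genes of 1 sign on all arrays in either reading, for the highest and lowest of each step, and for turned means over 0.5 in size. Sequences were not used here.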

Additional observations from a re-analysis of the deposited data

Results flagged for a closer look

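On 4 arrays, the gap of a reading to the nearest other was taken as a share of the whole range. A reading was singled out where that share exceeded the critical value of Dixon's test. Chance does this for about 1 gene in 20 if the 4 readings come from 1 normal distribution. The SD over all probes was 0.87, 0.95, 0.46 and 0.47 on arrays 1 to 4, so that rate need not hold here. Of 49 genes tested in each reading, 4 were singled out in turned signs and 6 in deposited signs. No share over all features is given here, so these counts are not read as a result about the group. In turned signs they were ALG14 at -0.40 on array 3, GPI10 at 0.79 on array 4, MNN2 at -1.49 on array 2 and PMT6 at -0.99 on array 1. In deposited signs they were ALG11 at 2.75, ALG13 at -0.91, ALG2 at -0.68, GPI10 at -0.74, GPI13 at -0.27 and MNN5 at 0.31, all on array 2. The median of the Golgi mannosyl genes on array 4, 0.30, and that of the 2 mannose donor genes on array 2, 1.83, stood apart from the other arrays in the same way.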

How the results depend on the processing

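In turned signs the number of features called, 0, ran from 0 to 1 when 1 array was left out, and the same gene, MCD4, made the number of members called run from 0 to 1, with the call made without array 1. Array weights gave 4 features called, averaging arrays 1 with 2 and 3 with 4 gave 2, averaging 1 with 4 and 2 with 3 gave 4, and arrays 3 and 4 alone gave 10, each with 1 member, MCD4. The last of these averages and the use of 2 arrays alone were chosen after seeing the data. In deposited signs arrays 1 and 2 alone gave 205 features called, 3 of them members (ALG7, GPI8 and MNT3), while averaging arrays 1 with 2 and 3 with 4, also chosen after seeing the data, gave 7, with 0 members. The cause was not tested.

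With 1 array left out, members positive on all remaining arrays numbered 9 to 12 (7.1% to 11.3% of all features) and members negative on all remaining arrays 1 to 7 (8.26% to 11.3%), 7 of them without array 4; fewer arrays make such runs more frequent. With print blocks centred 0 were negative on all 4. The median of the ER N-glycan genes was 0.23 on arrays 3 and 4 alone, and that of the O-mannosyl genes was -0.16 on arrays 1 and 2 alone. The ER N-glycan median ran from -0.05 to 0.16 and the O-mannosyl median from 0.18 to 0.54 with 1 array left out.

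Of all 49 genes, 43 moved by more than 1.5 times or changed sign in turned signs without some array, and 20 changed sign, as did 16 and 6 of the 17 pathway genes outside the rule. Of 26 genes with values on every array, 20 moved by more than 1.5 times or changed sign without some array, and 10 changed sign. Their means without 1 array ran from -0.20 to 0.89 for ALG11, -0.14 to 0.24 for CWH41, -0.25 to 1.29 for GPI8, -0.35 to 0.20 for KTR5, -0.45 to 0.082 for MNN5, -0.46 to 0.65 for MNT3, -0.16 to 0.36 for OCH1, -0.10 to 0.49 for OST4, -0.19 to 0.51 for PMT4 and -0.26 to 0.17 for PMT6. With print blocks centred the sign changed for CWH41 (-0.030), MNT3 (-0.17), OCH1 (-0.10) and PMT4 (-0.12). With array weights it changed for CWH41 (-0.028), MNT3 (-0.010) and PMT6 (0.047). Scaling the arrays to 1 SD changed 0 signs. Background correction, a filter on dim spots and the slide as a block need scanner values, which were not used here.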
